A study of Homo sapiens with 4 samples.

Results

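Histone acetylation and methylation enzymes were followed in FT190 cells, human cells labelled as ovarian epithelial and known as immortalised secretory cells of fallopian tube origin. The members were the 67 protein-coding genes outside chromosome Y, of 63241 genes in the count table, whose symbol begins with KDM, KMT, HDAC, SIRT, KAT, SETD or NSD and continues with a digit or the letter B. They comprised 18 acetyl erasers (HDAC and SIRT genes), 8 acetyl writers (KAT genes), 19 methyl erasers (KDM genes) and 22 methyl writers (KMT, NSD, SETD and SETDB genes). Bulk RNA-seq was available for 2 libraries of cells in which a short hairpin RNA targeted SMARCA4 (shSMARCA4) and 2 libraries of cells with the PLKO vector (control). All 4 are labelled wild type in genotype and were grown in RPMI medium with serum. The treatment label of the knockdown libraries names 1 hairpin, SMARCA4_sh1, so effects of SMARCA4 loss and other effects of that hairpin cannot be told apart here. The labels do not tie the replicates to separate cultures, and every p-value therefore rests on library-to-library spread that may be technical.

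Lysines of histone tails carry acetyl and methyl groups that writers add, erasers remove and reader proteins bind. Acetylation by KAT enzymes is associated with open, transcribed chromatin, and it is reversed by zinc-dependent HDACs and NAD-dependent sirtuins. Methylation depends on the residue: H3K4 methylation by COMPASS-type enzymes marks promoters and enhancers, H3K36 methylation marks transcribed or intergenic euchromatin, and H3K9 and H3K27 methylation accompany silencing. SMARCA4 is the ATPase of SWI/SNF remodelling complexes, which bind acetylated chromatin through bromodomains and oppose Polycomb silencing.

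Total counts were 28536665 and 27137414 in the shSMARCA4 libraries and 33641343 and 32618516 in the control libraries. SMARCA4 stood at 33.998 and 36.3 CPM in the shSMARCA4 libraries and at 171 and 162 CPM in the control libraries, so the knockdown was seen in both. CPM here are counts per 1000000 of a library size that sums the genes tested and is multiplied by the trimmed mean of M values (TMM) factor of the library, and the levels per length below use the same CPM. Mitochondrial genes took 3.19% and 3.08% of counts in the shSMARCA4 libraries and 3.31% and 4.06% in the control libraries, with control library 2 the highest. The secretory lineage factor PAX8 (63.2 and 63.5 CPM in shSMARCA4, 57.4 and 59.8 CPM in control) and the keratins KRT7, KRT8 and KRT18 were detected, while EPCAM and OVGP1 stayed below 0.6 CPM in every library. The summed level of 10 secretory and epithelial markers was 1264 and 1266 CPM in shSMARCA4 and 1854 and 1749 CPM in control, and that of 8 fibroblast and smooth muscle markers was 1785 and 1921 CPM against 2588 and 2599 CPM. Immune markers summed to 23.6 and 25.2 CPM against 23.2 and 25.7 CPM, almost all of it CD68, and endothelial markers to 1.24 and 1.59 CPM against 2.35 and 2.88 CPM. Among 5 ciliated markers the sum was 8.32 and 8.22 CPM against 8.14 and 8.40 CPM, with FOXJ1 at 0 in 3 of the 4 libraries. Of the epithelial markers 3 of 9 tested fell, namely KRT7, KRT8 and KRT18, which make up most of that sum. Of the others 1 rose (WT1), and PAX8 did not pass. Of the fibroblast and smooth muscle markers 5 of 6 tested fell, with DCN at 0 in 3 of the 4 libraries. Most of their sum was COL1A1, at 1540 and 1663 CPM in shSMARCA4 and 1968 and 2004 CPM in control. The epithelial and fibroblast sums were lower in both shSMARCA4 libraries, and the enzymes called below moved in both directions. The part of these marker shifts in the enzyme results was not tested. In bulk RNA, fewer cells of a type and less RNA per cell cannot be told apart.

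Of the 67 enzymes, 65 passed the filter on low counts. The other two, KDM4E and KDM4F, are close relatives of KDM4D and had 0 counts in every library, which allows a level of up to 0.109 CPM in the shallowest one. Below, a value written with ± after a symbol is the log2 fold change of shSMARCA4 over control cells with its standard error, and a gene "rose" or "fell" only where its p, Benjamini-Hochberg adjusted over the 18781 genes tested, was under 0.05 in the quasi-likelihood test of edgeR. By this rule 9 enzymes rose and 12 fell, 32.3% of those tested, against 29.7% of all genes tested and 36.0% of protein-coding genes tested, so the share of enzymes called lay near the background. The median log2 fold change was -0.04 over the 65 enzymes and 0.00 over all genes. The changes were modest: they ran from -0.61 to 0.38 and had a median size of 0.30 among the 21 called, and no enzyme reached a 2-fold change. The groups did not overlap in 47 of the 65, against 65.9% of all genes tested and 71.0% of protein-coding genes tested. The counts moved when single libraries were left out, over all genes tested as well as among the enzymes. A fit that leaves out 1 library keeps a single library in that group, so its spread comes from the other group alone. With no filter on low counts 3 enzymes rose and 8 fell, and DESeq2 called 4 enzymes as higher and 12 as lower. Over all genes, 2596 rose and 2976 fell in the main fit. With no filter these were 1403 and 1784, and with DESeq2 1625 and 1930.

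**Figure D1:**
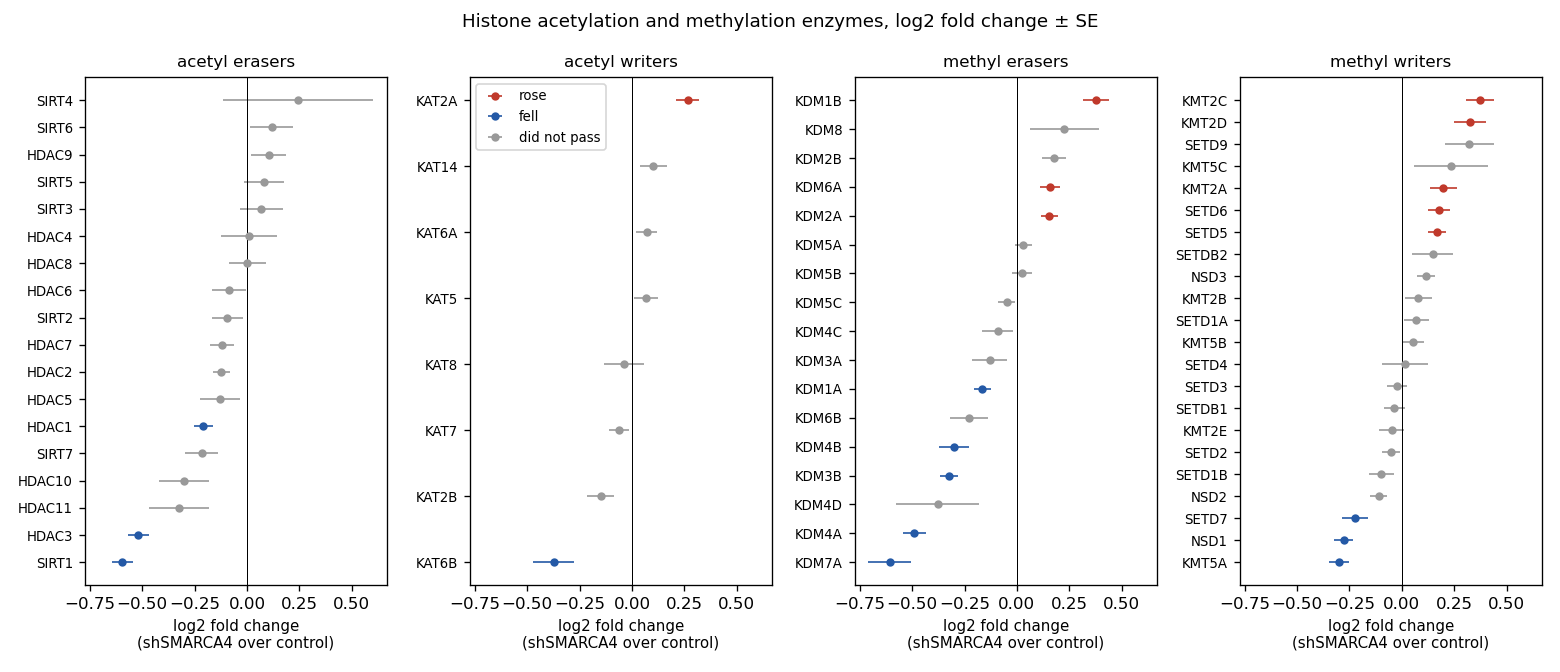
Log2 fold change of shSMARCA4 over control cells (x axis) for the 65 enzymes tested, in 4 panels by class, with bars for the standard error and colour for the call by edgeR's quasi-likelihood test. The acetyl erasers hold 3 enzymes that fell and 0 that rose, while called methyl erasers and methyl writers lie on both sides of 0.

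The calls were counted by class. Among acetyl erasers 0 of 18 rose and 3 fell, with a median log2 fold change of -0.11, and among acetyl writers 1 of 8 rose and 1 fell, with a median of 0.02. Of 17 methyl erasers tested 3 rose and 5 fell, with a median of -0.09, and of 22 methyl writers 5 rose and 3 fell, with a median of 0.06. Over all genes tested, 13.8% rose and 15.8% fell. Differences between classes were not tested.

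The acetyl erasers called were SIRT1, HDAC3 and HDAC1, all lower in knockdown cells and 16.7% of the class, against 29.7% of all genes called. SIRT1, a nuclear NAD-dependent deacetylase of histones and of transcription factors such as p53 (plus strand, chromosome 10, 67884656 to 67918390 in hg38), had 45.2 and 44.3 CPM in the shSMARCA4 libraries and 69.0 and 66.2 CPM in the control libraries. The knockdown libraries were both below the controls, at a 1.51-fold lower level (-0.60 ± 0.049, adjusted p = 5.29e-05 by edgeR). HDAC3, a class I deacetylase that acts within corepressor complexes (minus strand, chromosome 5, 141620881 to 141636849), had 35.2 and 33.98 CPM in shSMARCA4 and 49.6 and 49.6 CPM in control. Replicates lay close together and the groups apart, at a 1.43-fold lower level (-0.52 ± 0.051, adjusted p = 1.35e-04 by edgeR). HDAC1, a class I deacetylase of the SIN3, NuRD and CoREST complexes, had 164 and 169 CPM in shSMARCA4 and 188 and 198 CPM in control, a 1.16-fold lower level (-0.21 ± 0.043, adjusted p = 0.00675 by edgeR). Its call was lost without shSMARCA4 library 1 (adjusted p = 0.0928 by edgeR), whereas SIRT1 and HDAC3 kept theirs under all 13 alternatives. In the transcript models of GENCODE release 29, 5.41% of the exon bases of HDAC3 lie under an opposite-strand gene, and reads were counted on both strands.

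The closest relatives of these deacetylases gave no call. HDAC2, which shares complexes with HDAC1, had 280 and 278 CPM in shSMARCA4 and 312 and 296 CPM in control and did not pass (-0.12 ± 0.042, adjusted p = 0.0535 by edgeR). Its log2 fold change ran from -0.16 to -0.07 over the alternatives. Of the alternatives that keep all 4 libraries, the 1 CPM filter, limma, the fit of protein-coding genes only and the replicate block called it as lower. The size depended on the control library kept: the log2 fold change was -0.16 without control library 2 and -0.08 without control library 1. HDAC8, the remaining class I enzyme, lay at 0.00 ± 0.089, with groups that overlapped. Of its exon bases 47.7% are shared with a same-strand gene model, so its own level is uncertain. The class IIa enzymes HDAC4, HDAC5, HDAC7 and HDAC9, which act as signal-dependent corepressors with little catalytic activity of their own, ran from -0.13 to 0.10, and none passed. Class IIb members HDAC6, the tubulin deacetylase, and HDAC10, a polyamine deacetylase, and the class IV enzyme HDAC11 gave -0.09 ± 0.082, -0.30 ± 0.12 and -0.32 ± 0.14, none past the test. HDAC10 counts are uncertain, since 86.7% of its exon bases are shared with models of the neighbouring MAPK12 gene.

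SIRT1 was the only sirtuin past the test, while SIRT7 was called in 2 of the 13 alternatives. The nucleolar SIRT7 had 15.9 and 14.7 CPM in shSMARCA4 and 17.9 and 17.7 CPM in control (-0.22 ± 0.077, adjusted p = 0.0633 by edgeR). The mainly cytoplasmic SIRT2, the mitochondrial SIRT3, SIRT4 and SIRT5 and the chromatin-bound SIRT6 ran from -0.09 to 0.24. SIRT4 was the lowest of the tested enzymes in the level per length, at 0.465 CPM per kb in shSMARCA4 and 0.394 CPM per kb in control, and the wide standard error of 0.36 leaves its change unresolved at this depth.

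The summed acetyl eraser transcripts were lower in both knockdown libraries. Levels per length, in CPM per kilobase of the 1 transcript counted per gene, allow sums across genes. The 18 acetyl erasers summed to 197 and 196 CPM per kb in the shSMARCA4 libraries and to 225 and 229 CPM per kb in the control libraries, a ratio of 0.864. HDAC1 alone made up 40.5% of that sum in control cells. This share depends on the transcript counted. HDAC2 had 304 CPM and HDAC1 193 CPM in control, over counted transcripts of 9710 and 2091 bases. Class I HDACs summed to 132 and 134 CPM per kb in shSMARCA4 and 154 and 158 CPM per kb in control, and sirtuins to 36.9 and 35.3 CPM per kb against 42.8 and 42.1 CPM per kb. Within the sirtuin sum, SIRT1 stood at 10.9 CPM per kb in shSMARCA4 and 16.5 CPM per kb in control. Of the 7 sirtuins 4 had a log2 fold change above 0, and their median was 0.07. Acetyl writers, in contrast, summed to 69.3 and 71.2 CPM per kb in shSMARCA4 and 67.9 and 68.9 CPM per kb in control, a ratio of 1.03. These sums are descriptions: an exact permutation test of 2 libraries against 2 cannot go below p = 0.33, and none was run.

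**Figure D2:**
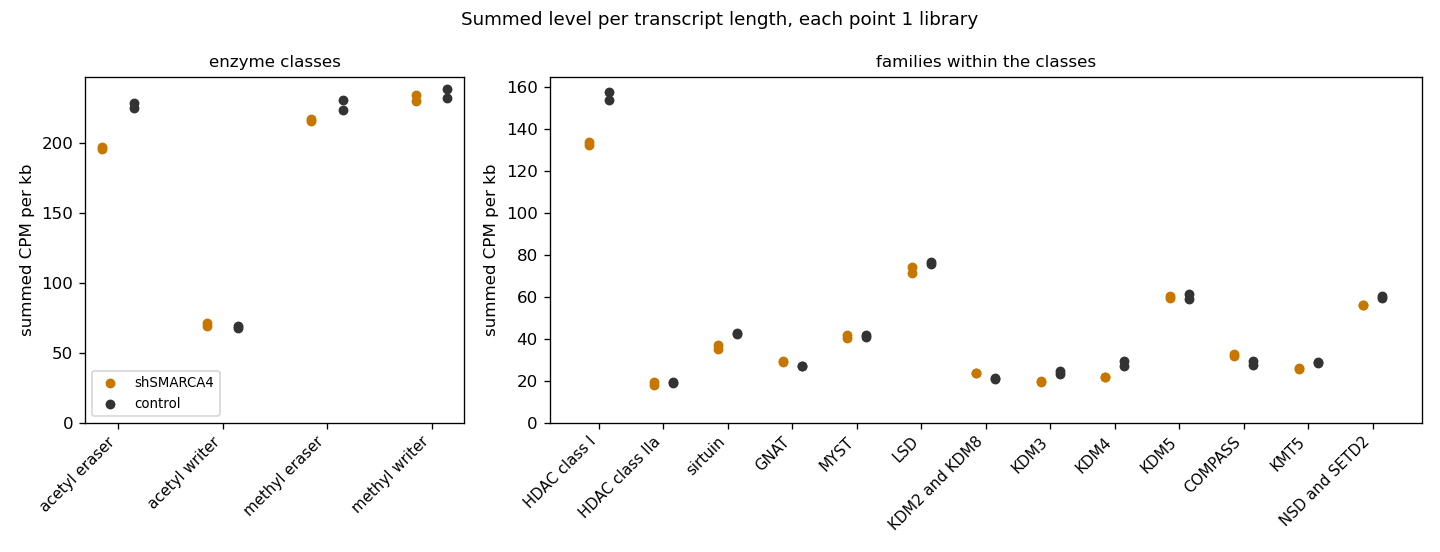
Summed CPM per kb (y axis, from 0) of each enzyme class and of 13 families, with 1 point per library and shSMARCA4 drawn left of control. The acetyl eraser sum is 197 and 196 in shSMARCA4 and 225 and 229 in control, while the acetyl writer and methyl writer points of the 2 groups lie close together.

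Among acetyl writers 2 of 8 members were called, in opposite directions. That is 25.0% of the class, against 29.7% of all genes tested and 36.0% of protein-coding genes tested. KAT2A (GCN5), the catalytic subunit of SAGA and ATAC, rose: it had 36.6 and 38.2 CPM in shSMARCA4 and 30.9 and 31.2 CPM in control (0.27 ± 0.055, adjusted p = 0.00638 by edgeR). The call was lost without shSMARCA4 library 2, where the log2 fold change was 0.24. Of its exon bases 13.03% are shared with a same-strand gene model at 44.9 CPM in control, so its own level is uncertain. KAT2B (PCAF), its interchangeable paralog, had 28.5 and 28.8 CPM in shSMARCA4 and 30.2 and 33.3 CPM in control and did not pass (-0.15 ± 0.065, adjusted p = 0.117 by edgeR). The ratio of KAT2A to KAT2B per length was 1.82 and 1.88 in shSMARCA4 and 1.45 and 1.33 in control.

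KAT6B, a MYST-family acetyltransferase of H3K23 within the BRPF complexes, fell. Its 24.7 and 24.4 CPM in shSMARCA4 lay below 28.3 and 35.4 CPM in control (-0.37 ± 0.097, adjusted p = 0.0185 by edgeR). The 2 control libraries differed from each other, and the log2 fold change was -0.21 without control library 2 and -0.52 without control library 1. The call was lost when low-count genes were kept in the fit (adjusted p = 0.109 by edgeR). Its paralog KAT6A did not pass, with 63.7 and 60.4 CPM in shSMARCA4 and 60.2 and 58.1 CPM in control. The other MYST enzymes KAT5 (TIP60), KAT7 (HBO1) and KAT8 (MOF) and the ATAC subunit KAT14 ran from -0.06 to 0.10, and none passed. KAT5 had the highest level per length of the class, at 17.6 CPM per kb in shSMARCA4 and 16.8 CPM per kb in control, with 49.5% of its exon bases shared with RNASEH2C on the opposite strand.

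The methyl erasers that fell were KDM4A, KDM4B, KDM3B, KDM7A and KDM1A, and those that rose were KDM1B, KDM2A and KDM6A. KDM4A, a demethylase of trimethylated H3K9 and H3K36, had 56.0 and 53.2 CPM in shSMARCA4 and 73.2 and 80.1 CPM in control, a 1.40-fold lower level (-0.49 ± 0.057, adjusted p = 3.37e-04 by edgeR). The groups were well apart, but 56.1% of its exon bases are shared with other gene models, chiefly a same-strand model, so its own level is uncertain. KDM4B, with the same substrates, had 24.9 and 25.2 CPM in shSMARCA4 and 28.96 and 32.7 CPM in control (-0.30 ± 0.072, adjusted p = 0.0130 by edgeR), a call lost when low-count genes were kept (adjusted p = 0.0693 by edgeR). KDM3B, which removes mono- and dimethyl groups from H3K9, had 103 and 103 CPM in shSMARCA4 and 126 and 132 CPM in control (-0.32 ± 0.044, adjusted p = 7.57e-04 by edgeR). KDM7A, a demethylase of dimethylated H3K9 and H3K27, gave the largest fold change among the tested enzymes, at a low level: 6.94 and 7.39 CPM in shSMARCA4 and 10.5 and 11.3 CPM in control (-0.61 ± 0.10, adjusted p = 0.00215 by edgeR).

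Relatives of KDM3B, KDM4A and KDM4B gave no call. KDM3A, known as a hypoxia-induced demethylase, had 34.3 and 38.1 CPM in shSMARCA4 and 36.4 and 42.8 CPM in control, with overlapping groups. KDM4C (-0.09 ± 0.075) and the weakly expressed KDM4D (-0.38 ± 0.20) did not pass either. The summed level of the KDM4 family was 21.956 and 21.7 CPM per kb in shSMARCA4 and 26.9 and 29.6 CPM per kb in control. That is a ratio of 0.772, the lowest among the families of 2 or more genes. KDM4A made up 61.0% of this sum in control, so the uncertainty of its own level applies to the sum as well.

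The flavin-dependent demethylases KDM1A and KDM1B moved in opposite directions. KDM1A (LSD1), the H3K4 demethylase of CoREST, had 222 and 215 CPM in shSMARCA4 and 244 and 246 CPM in control (-0.17 ± 0.039, adjusted p = 0.0126 by edgeR), and its call was lost without either shSMARCA4 library and with no filter on low counts. KDM1B (LSD2), which acts on H3K4 in gene bodies, had 71.6 and 68.0 CPM in shSMARCA4 and 56.8 and 50.5 CPM in control, a 1.30-fold higher level (0.38 ± 0.062, adjusted p = 0.00202 by edgeR) that was called under all 13 alternatives. The ratio of KDM1B to KDM1A per length was 0.274 and 0.269 in shSMARCA4 and 0.197 and 0.175 in control. KDM1A remained the more abundant of the pair in every library, with 57.2 CPM per kb in shSMARCA4 and 64.2 CPM per kb in control.

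Smaller rises were seen in KDM2A and KDM6A. KDM2A, a CpG-binding demethylase of dimethylated H3K36, had 117 and 117 CPM in shSMARCA4 and 104 and 106 CPM in control (0.15 ± 0.041, adjusted p = 0.0195 by edgeR). KDM2B, which also brings a variant Polycomb complex to CpG islands, had 33.3 and 35.0 CPM in shSMARCA4 and 29.5 and 30.9 CPM in control and stood just outside the threshold (0.18 ± 0.059, adjusted p = 0.0501 by edgeR), with calls in 7 of 13 alternatives. KDM2B shares 13.8% of its exon bases with other gene models, chiefly RNF34 on the opposite strand, so its own level is uncertain. KDM6A (UTX), an H3K27 demethylase that works within the KMT2C and KMT2D complexes, had 99.6 and 96.5 CPM in shSMARCA4 and 85.4 and 90.4 CPM in control (0.16 ± 0.047, adjusted p = 0.0320 by edgeR). The calls of KDM2A and KDM6A were each lost in 4 of 13 alternatives, namely no filter on low counts, DESeq2 and the fits without either shSMARCA4 library.

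The inducible H3K27 demethylase KDM6B had 11.1 and 12.4 CPM in shSMARCA4 and 13.8 and 13.8 CPM in control and did not pass (-0.23 ± 0.090, adjusted p = 0.0880 by edgeR). The demethylases of trimethylated H3K4 gave no call: KDM5A, KDM5B and KDM5C ran from -0.05 to 0.03 with standard errors of 0.041 to 0.046, and none of them was called under any alternative. KDM8 was low, at 3.04 and 3.12 CPM in shSMARCA4 and 2.87 and 2.39 CPM in control, and did not pass.

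**Figure D3:**
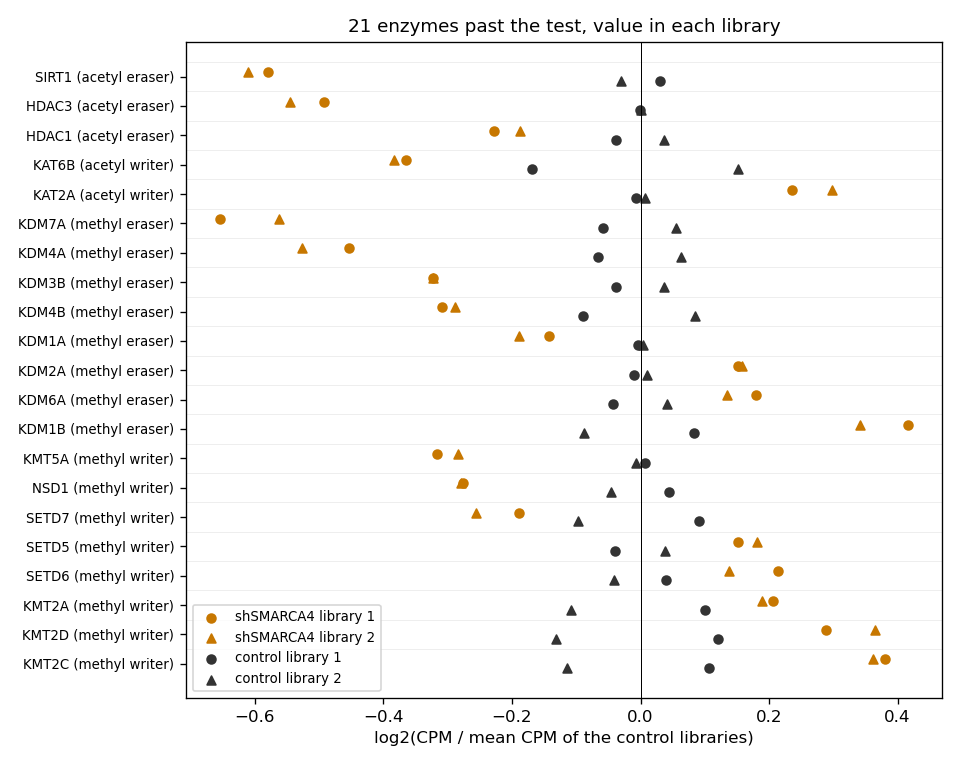
Each of the 21 enzymes past the test, as log2 of the CPM over the mean of the control libraries (x axis), with 1 symbol per library. The shSMARCA4 and control symbols do not overlap in any of the 21, and KAT6B, KMT2A, KMT2C and KMT2D show the widest gaps between the 2 control libraries.

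Methyl writers of the COMPASS family showed rises in 3 of 6 catalytic subunits, beside 16.8% of protein-coding genes tested. All 3 have counted transcripts above 15 kb, and 30.9% of protein-coding genes of that length with a mean of at least 5 CPM rose. KMT2C (MLL3), which writes H3K4 monomethylation at enhancers, had 98.6 and 97.3 CPM in shSMARCA4 and 81.5 and 70.0 CPM in control, a 1.29-fold higher level (0.37 ± 0.066, adjusted p = 0.00315 by edgeR). KMT2D (MLL4), its partner at enhancers, had 78.8 and 83.1 CPM in shSMARCA4 and 70.2 and 58.9 CPM in control (0.33 ± 0.075, adjusted p = 0.0109 by edgeR). KMT2A (MLL1), known for its role at HOX genes, had 129 and 128 CPM in shSMARCA4 and 120 and 104 CPM in control (0.20 ± 0.063, adjusted p = 0.0438 by edgeR). In KMT2A 18.9% of exon bases are shared with other gene models, chiefly 1 on the same strand, so its own level is uncertain. KMT2B, SETD1A and SETD1B, which write H3K4 trimethylation at promoters, gave 0.08 ± 0.064, 0.07 ± 0.059 and -0.10 ± 0.059, and none passed.

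Control library 2 was the lowest of the 4 in all 3 genes that rose, and their size depended on which control was used. It is also the library with the highest mitochondrial share (4.06%), whose part in these rises was not tested. The log2 fold change without control library 2 was 0.26 for KMT2C, 0.21 for KMT2D and 0.10 for KMT2A, the last no longer called (adjusted p = 0.0737 by edgeR). KMT2A also lost its call in DESeq2, without shSMARCA4 library 1 and when low-count genes were kept. Without control library 1 it was 0.49, 0.46 and 0.31. KMT2C kept its call under all 13 alternatives, and KMT2D lost it when low-count genes were kept (adjusted p = 0.0746 by edgeR).

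These 3 genes also have the longest counted transcripts of the set, above 15 kb each. Among 94 protein-coding genes of that length with a mean of at least 5 CPM, the median log2 fold change was 0.06 and the median log2 ratio of control library 1 over control library 2 was 0.06, while 30.9% rose and 17.0% fell. The same control ratio was 0.22 for KMT2C, 0.25 for KMT2D and 0.21 for KMT2A. In genes of 2 to 4 kb the median fold change was 0.00 and the median control ratio 0.01. The part of transcript length in these rises was not tested.

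**Figure D4:**
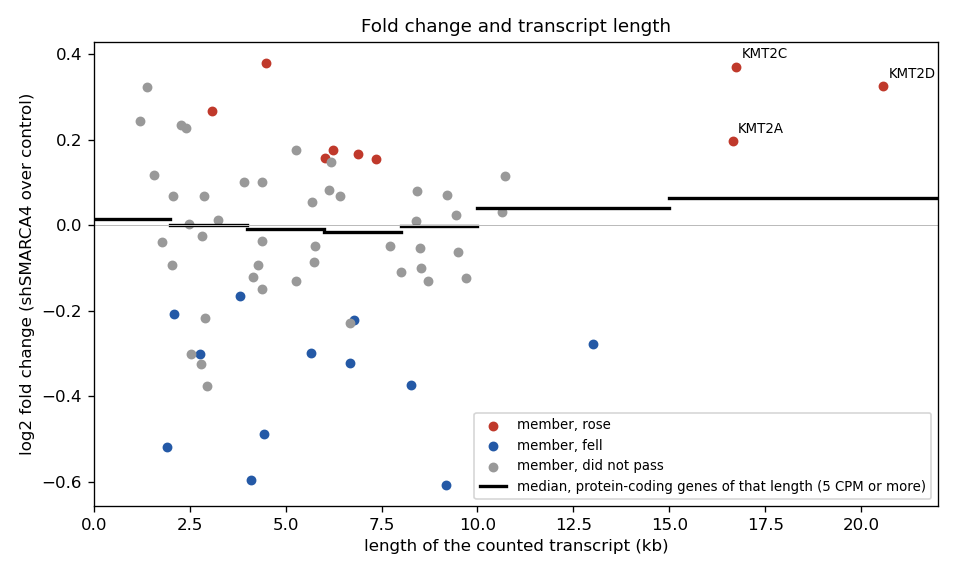
Log2 fold change of shSMARCA4 over control cells (y axis) against the length of the counted transcript in kb (x axis) for the 65 enzymes, with black lines for the median of protein-coding genes in the same length range, the last covering all lengths above 15 kb. KMT2A, KMT2C and KMT2D lie alone above 15 kb, at 0.20 to 0.37, over a median of 0.06 for genes of that length.

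Writers of H3K36 and H4K20 methylation included falls in NSD1 and KMT5A. NSD1, an H3K36 dimethyltransferase, had 129 and 129 CPM in shSMARCA4 and 161 and 151 CPM in control, a 1.21-fold lower level (-0.28 ± 0.045, adjusted p = 0.00181 by edgeR). Its paralogs NSD2, with 180 and 186 CPM in shSMARCA4 and 198 and 196 CPM in control, and NSD3, with 93.7 and 94.0 CPM in shSMARCA4 and 85.3 and 88.0 CPM in control, did not pass (adjusted p = 0.0695 and 0.0728 by edgeR). Of the alternatives that keep all 4 libraries, the replicate block called NSD2 as lower. Upper-quartile scaling, total scaling, the fit of protein-coding genes only and the replicate block called NSD3 as higher. NSD3 shares 6.77% of its exon bases with other gene models, chiefly DDHD2 on the opposite strand. SETD2, the enzyme that completes H3K36 trimethylation behind the polymerase, lay at -0.05 ± 0.045. KMT5A (SET8), the H4K20 monomethyltransferase needed for cell-cycle progression, had 41.7 and 42.6 CPM in shSMARCA4 and 52.1 and 51.7 CPM in control, a 1.23-fold lower level (-0.30 ± 0.048, adjusted p = 0.00178 by edgeR). KMT5B and KMT5C, which add further methyl groups to H4K20, gave 0.05 ± 0.053 and 0.24 ± 0.18 and did not pass. NSD1 and KMT5A were called as lower under all 13 alternatives.

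Among the remaining SET-domain genes, SETD7 fell and SETD5 and SETD6 rose. SETD7, which monomethylates H3K4 in vitro and many non-histone proteins, had 141 and 134 CPM in shSMARCA4 and 171 and 150 CPM in control (-0.22 ± 0.062, adjusted p = 0.0242 by edgeR). That call was lost with no filter on low counts and without shSMARCA4 library 2, and the log2 fold change of SETD7 was -0.12 without control library 1 and -0.31 without control library 2. SETD5, whose own catalytic activity is disputed, had 135 and 137 CPM in shSMARCA4 and 118 and 124 CPM in control (0.17 ± 0.044, adjusted p = 0.0203 by edgeR), and SETD6, a methyltransferase of the NF-kB subunit RELA, had 52.2 and 49.5 CPM in shSMARCA4 and 46.2 and 43.7 CPM in control (0.18 ± 0.054, adjusted p = 0.0357 by edgeR). SETD5 was lost in 4 and SETD6 in 5 of 13 alternatives, DESeq2 and no filter among them.

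The H3K9 methyltransferases SETDB1 (-0.04 ± 0.049) and SETDB2 (0.15 ± 0.098) did not pass, and neither did KMT2E (-0.05 ± 0.060), a relative of SETD5. SETDB1 shares 18.4% of its exon bases with CERS2 on the opposite strand, at 218 CPM in control, so its own level is uncertain. SETD3, the actin histidine methyltransferase, had the highest level per length among methyl writers, at 37.8 CPM per kb in shSMARCA4 and 38.5 CPM per kb in control, and did not pass. SETD4 (0.01 ± 0.11) and SETD9 (0.32 ± 0.12, adjusted p = 0.0695 by edgeR) did not pass either. SETD9 had 10.4 and 8.66 CPM in shSMARCA4 and 7.96 and 7.28 CPM in control. Its log2 fold change ran from 0.19 to 0.45 over the alternatives. Summed over the class, methyl writers stood at 235 and 230 CPM per kb in shSMARCA4 and 239 and 233 CPM per kb in control, a ratio of 0.986, and methyl erasers at 217 and 216 CPM per kb against 224 and 231 CPM per kb, a ratio of 0.952. COMPASS subunits alone summed to 31.6 and 32.5 CPM per kb in shSMARCA4 and 29.6 and 27.6 CPM per kb in control.

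Related enzymes were set against each other within each library, since a ratio of 2 genes does not depend on the scaling of the libraries. Among 17 pairs, picked with their values known, the ratio did not overlap between the groups in 14, a count that says nothing about these pairs beyond their choice, since single genes did not overlap in 71.0% of protein-coding genes tested. SIRT2 to SIRT1 stood at 0.894 and 0.831 in shSMARCA4 and 0.598 and 0.622 in control, and NSD3 to NSD1 at 0.882 and 0.886 against 0.643 and 0.706. The ratio of KMT5B to KMT5A was 0.575 and 0.525 in shSMARCA4 and 0.427 and 0.433 in control, and that of KDM6A to KDM6B was 9.90 and 8.58 against 6.85 and 7.26. HDAC3 to HDAC1 was 0.235 and 0.221 in shSMARCA4 and 0.290 and 0.276 in control. The ratios of HDAC2 to HDAC1, KDM2A to KDM2B and KMT2A to KMT2B overlapped between the groups. With 2 libraries a side, the smallest exact permutation p of such a ratio is 0.33, so these are descriptions.

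**Figure D5:**
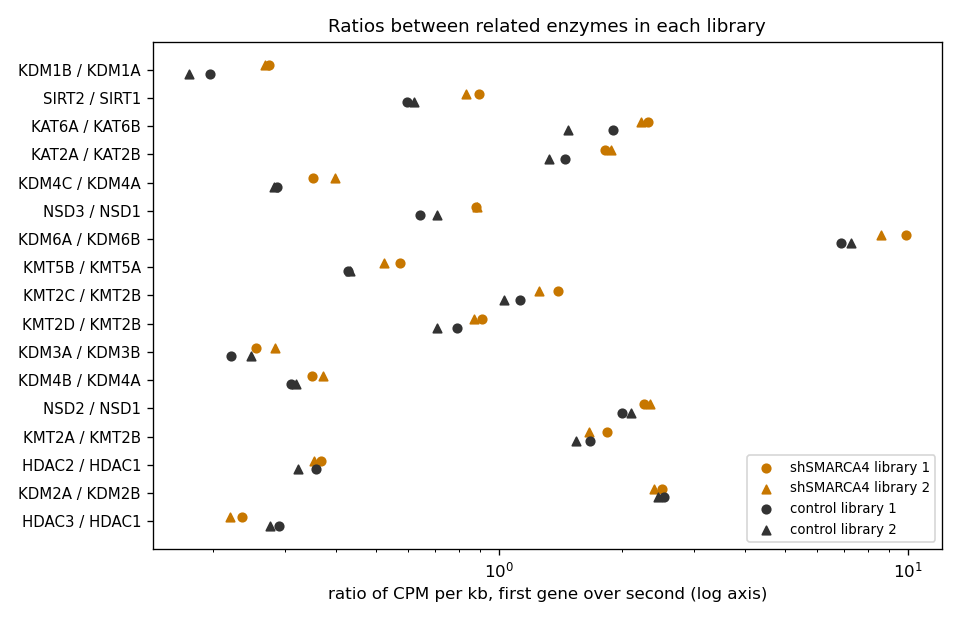
Ratio of the level per length of the first enzyme over the second (x axis, log scale) for 17 pairs, with 1 symbol per library. In KDM1B over KDM1A the shSMARCA4 libraries stand at 0.274 and 0.269 and the control libraries at 0.197 and 0.175, and in HDAC2 over HDAC1 the groups overlap.

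Subunits of the complexes that carry these enzymes were counted from lists of their known members. Beside these lists, 29.7% of all genes tested and 36.0% of protein-coding genes tested were called, with 16.8% of the protein-coding genes higher and 19.2% lower, and a median log2 fold change of 0.00. Of 32 deacetylase complex subunits tested, 37.5% were called: 2 rose and 10 fell, 6.25% and 31.2% of them, with a median of -0.02. RCOR3, a CoREST paralog, had 40.7 and 39.2 CPM in shSMARCA4 and 55.9 and 57.0 CPM in control (-0.50 ± 0.050), and the NuRD ATPase CHD4 had 435 and 427 CPM against 528 and 530 CPM (-0.30 ± 0.037). Their adjusted p-values were 1.47e-04 and 5.13e-04 by edgeR.

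Of 38 acetyltransferase complex subunits, 10 rose and 6 fell, 42.1% in all, with a median of 0.04. JADE3, a subunit of HBO1 complexes, fell (-0.63 ± 0.057), as did MORF4L2 (-0.34 ± 0.037), and MRGBP, a TIP60 complex subunit, rose (0.39 ± 0.053). Among 15 COMPASS and MLL cofactors 4 rose and 2 fell, 40.0% in all, with a median of 0.03: the core subunit ASH2L had 25.7 and 26.5 CPM in shSMARCA4 and 38.3 and 39.0 CPM in control (-0.57 ± 0.056), while PAXIP1 (0.35 ± 0.054), which belongs to the KMT2C and KMT2D complexes, and BOD1 (0.29 ± 0.047) rose.

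Writers and erasers whose symbols lie outside the 7 name stems were counted in the same way, and again 36.0% of protein-coding genes is the share to read them against. Of 11 other acetyl writers, 3 rose and 2 fell (45.5% called, median 0.03): the coactivator NCOA3 had 33.7 and 33.1 CPM in shSMARCA4 and 54.4 and 61.1 CPM in control (-0.79 ± 0.064), CREBBP, one of the main H3K27 acetyltransferases, fell (-0.19 ± 0.043), and GTF3C4 rose (0.22 ± 0.043). Of 14 other methyl writers tested, 3 rose and 2 fell (35.7% called, median 0.02): SMYD5 (0.56 ± 0.067) rose, and SMYD3 (-0.51 ± 0.072) and the H3K79 methyltransferase DOT1L (-0.32 ± 0.054) fell. Arginine methyltransferases had 3 rises and 1 fall among 9 tested (44.4% called, median 0.09), with CARM1 (0.29 ± 0.045), PRMT5 (0.25 ± 0.060) and PRMT1 (0.20 ± 0.057) higher. Of 8 other methyl erasers, 37.5% were called, with a median of -0.05: PHF2 (0.30 ± 0.064) rose, and HR (-1.35 ± 0.20), at 1.31 and 1.67 CPM in shSMARCA4 and 3.32 and 4.25 CPM in control, and PHF8 (-0.26 ± 0.057) fell.

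Readers and the enzymes that supply cofactors completed the set of lists. Of 30 reader genes 6 rose and 4 fell (33.3% called, median 0.00): the heterochromatin protein CBX5 fell (-0.32 ± 0.037), and BRWD3 (0.38 ± 0.051) and the Polycomb-associated MTF2 (0.34 ± 0.046) rose. Of 24 genes of acetyl-CoA, methyl donor, NAD and 2-oxoglutarate metabolism, 3 rose and 6 fell, with a median of -0.07. The 37.5% called lay near the share of protein-coding genes. Falls included OGDH (-0.36 ± 0.045), which consumes 2-oxoglutarate, the methionine synthase MTR (-0.37 ± 0.047) and the nuclear NAD-synthesising enzyme NMNAT1 (-0.70 ± 0.092), at 10.9 and 9.78 CPM in shSMARCA4 and 16.3 and 17.5 CPM in control.

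Since 1 hairpin was used, the 3' untranslated regions (UTRs) of the enzymes were searched on the sense strand for the 7-mer that, among all 7-mers, went most closely with lower levels across 10482 protein-coding genes. This 7-mer, ATAGTGA, was the leading one in these same libraries, and its carriers had a median log2 fold change of -0.06 against 0.01 in genes without it. It occurs in the 3' UTR of 10.8% of those genes, of which 35.4% fell, against 19.2% of the others. In 4 enzymes it was found 1 time each. The sites below, with the 7-mer in capitals, are shown to mark which enzymes carry it, and come from GENCODE release 29 transcripts on hg38.
KAT6B, chr10:75031877-75031905, plus strand: tttaaaaaaaaATAGTGAatttggtgtaa
SETD7, chr4:139510148-139510176, minus strand: agctgtagcagATAGTGAgctccagctga
HDAC2, chr6:113935903-113935931, minus strand: gaattatagttATAGTGAagttaatattc
SETD3, chr14:99398041-99398069, minus strand: cacacatatatATAGTGAtttctaaagat

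KAT6B and SETD7 were among the enzymes that fell, and HDAC2 and SETD3 did not pass the test. The next 7-mers in that ranking, TAGTGAA and GATAGTG, overlap the first. At least 1 of the 3 occurred in the 3' UTR of 6 of the 12 enzymes that fell (KDM3B, KDM4A, KDM7A, KAT6B, NSD1 and SETD7), of 2 of the 9 that rose (SETD5 and KMT2D) and of 7 of the 44 that did not pass. Over all 10482 genes searched 19.6% carry at least 1, as do 29.9% of those that fell and 15.7% of those that rose. The 7-mers were ranked on the fold changes of these same libraries, so the split of the enzymes by them is not independent of their values. SIRT1, HDAC3, HDAC1, KDM4B, KDM1A and KMT5A fell and carry none of the 3 in the 3' UTR searched. Among the called enzymes, the transcript searched was not the one counted for KDM1A, KDM1B, KMT2A and KMT2D. The same holds for SIRT5 and NSD2, which carry at least 1 of the 3 and did not pass, and for some other enzymes that did not pass. Upstream of the 3' UTR, SIRT1, HDAC3 and KDM1A carry at least 1 of the 3, as do some enzymes that rose, and HDAC1, KDM4B and KMT5A carry none. Among the 50 tested enzymes without any of them, 7 rose and 6 fell, with a median log2 fold change of 0.02, and among the 15 with at least 1, 2 rose and 6 fell, with a median of -0.11. The part of these 7-mers in the falls was not tested.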

How the data were processed

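Values are raw counts per gene as deposited. Per the file header, the authors counted exon reads on both strands with HOMER (analyzeRepeats), using GENCODE release 45 on hg38, 1 transcript per gene and no normalization. Alignment used STAR 2.6.1c, per the submitters' processing notes. Overlapping and antisense genes therefore share reads. Levels per kb divide CPM by the length of the counted transcript, which the authors give per gene.

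filterByExpr (count minimum 10) kept 18781 genes. After TMM scaling these were tested with edgeR 4.0.16 (glmQLFit, glmQLFTest) under R 4.3.3, two-sided, and p-values were adjusted by Benjamini-Hochberg. The standard error is the absolute log2 fold change over the square root of F. Alternatives were RLE, upper-quartile or total scaling, no filter, a filter of 1 CPM, DESeq2 1.42.0, limma 3.58.1 (voom), protein-coding genes only, a replicate block, and leaving out each library. The test was checked on simulated counts. Replicates of a group were not duplicates: chi-square over degrees of freedom was 1.94 in shSMARCA4 and 6.94 in control.

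The members, classes, lists and pairs were chosen with earlier results of these data known. Named were SMARCA4, each member past the threshold, the member of each class with the highest level per length, relatives of called members, and up to 3 called genes per context list by adjusted p. 1 gene that this rule names is not reported here. Other members were named after their values were seen. Exon sharing and 3' UTRs came from GENCODE release 29, which gives 66 members a 3' UTR. In 15 members over 5% of the exon bases are shared with another gene model. For 7-mers and length, genes needed a mean of 5 CPM or more, and for 7-mers a 3' UTR of 50 bases or more.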

Additional observations from a re-analysis of the deposited data

How the results depend on the processing

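Of the 21 enzymes called, 9 kept their call under all 13 alternatives and 12 lost it under at least 1. No called enzyme changed direction, and 15 of the 44 others were called under at least 1 alternative. With no filter on low counts 3187 genes were called (1403 higher and 1784 lower), with 11 enzymes (3 higher), among them 1 acetyl writer, 4 methyl erasers and 3 methyl writers. DESeq2 called 3555 genes (1625 higher and 1930 lower), with 4 enzymes higher and 5 methyl writers in either direction. Leaving out 1 library at a time gave 3801 to 7446 genes called, 1724 to 3618 higher and 2077 to 3828 lower. It gave 14 to 31 enzymes called, 4 to 12 higher and 10 to 19 lower, with 2 to 7 acetyl erasers, 1 to 4 acetyl writers, 5 to 9 methyl erasers and 5 to 11 methyl writers. With 1 library left out, 1 group holds a single library and the spread comes from the other group alone. Chi-square over degrees of freedom was 1.94 between the shSMARCA4 libraries and 6.94 between the control libraries. The cause of these shifts was not tested. The same-numbered libraries share only a number: their deviations from the group means correlated at 0.08, and with the replicate block 27 enzymes were called, 21 of them those of the fit without it, with 5 acetyl erasers. Genes called higher made up 46.6% of all calls, and 59.5% with library totals, where 12 enzymes rose and 12 fell. Depth limits the weakly expressed enzymes: the standard errors of KDM8, KMT5C, KDM4D and SIRT4 were 0.16, 0.18, 0.20 and 0.36 on the log2 scale.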
